A study of Mus musculus with 11 samples.

Results

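The genes described are 38 markers of T, natural killer (NK) and B lymphocytes, read in RNA from whole liver. They are 25 T and NK genes and 13 B genes, out of 19938 genes tested. A gene was read from a probe set annotated to its symbol alone, and from the brightest such probe set over the 11 arrays if there were several. All 38 were on the array, each with 1 probe set, and none was removed by a filter on dim signal. Tumour-free liver came from male animals aged 14 months in 3 groups: 3 arrays of wild type, 4 of Mdr2-KO and 4 of Mdr2-KO/IL6-KO. Mdr2 is the older name of Abcb4, which encodes the phospholipid pump of the bile canaliculus, and the Mdr2-KO/IL6-KO group, called the double knockout below, also lacks interleukin 6. The labels give the strain C57BL/6 for the wild type, and they give no strain or littermate control for the knockout groups. Wild-type titles carry the prefix W and all knockout titles the prefix BIL, so whatever these prefixes mark cannot be told apart from genotype in comparisons with wild type.

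T cells recognise antigen through a receptor coupled to the CD3 chains, with CD4 or CD8 as coreceptor. Cytotoxic T cells and NK cells kill target cells with perforin and granzymes released from granules, and the liver normally holds a resident population of both. B cells signal through surface immunoglobulin and its CD79 partners, and mature into plasma cells that secrete antibody. Livers of mice that lack Mdr2 leak bile into the portal tract and develop inflammation and scarring around bile ducts.

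Levels are RMA values on a log2 scale, so a difference of 1 is a doubling. Different probe sets were compared with each other only to say how bright or dim they were. Differences were tested with limma in 1 model of the 11 arrays. A gene was called at a Benjamini-Hochberg adjusted p under 0.05 over all 19938 genes. The labels do not say that each array is a separate mouse, so the p-values measure the spread between these arrays. Abcb4 averaged 9.83 ± 0.105 (SD, n = 3) for wild type, 7.74 ± 0.194 (n = 4) for Mdr2-KO and 8.09 ± 0.204 (n = 4) for the double knockout, with no overlap between either knockout group and wild type. Il6 was read between 1.62 and 2.09 on all arrays, near the bottom of the scale, and its deletion could not be checked from it. Most of the lymphocyte genes were dim in whole liver: 5 of 25 T and NK genes and 2 of 13 B genes lay above the median gene. In bulk tissue, fewer lymphocytes and less RNA per lymphocyte cannot be told apart.

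One array stood apart for these genes. Wild-type replicate 1 was the highest of all 11 arrays for 19 of 25 T and NK genes, and the highest wild-type array for 24 of them. The mean of the T and NK genes, each expressed as the difference from its own mean over all arrays, was 0.50 on that array. It was -0.01 and 0.12 on the other wild-type arrays, -0.13, -0.02, 0.10 and -0.01 on the Mdr2-KO arrays, and -0.13, -0.15, -0.07 and -0.19 on the Mdr2-KO/IL6-KO arrays. Mdr2-KO replicate 3 was thus level with wild-type replicate 3, and all 4 Mdr2-KO/IL6-KO arrays were below the lowest wild-type array. The B genes gave 0.25, 0.15 and -0.04 on the wild-type arrays, -0.02, -0.16, -0.08 and 0.06 on the Mdr2-KO arrays and -0.10, -0.04, 0.00 and 0.00 on the double-knockout arrays. Here the wild-type group overlapped both knockout groups. Calls, counts and medians against wild type are given below also without wild-type replicate 1, as are changes of single genes with an unadjusted p under 0.05 that moved by over 1.5 times without it.

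**Figure D1:**
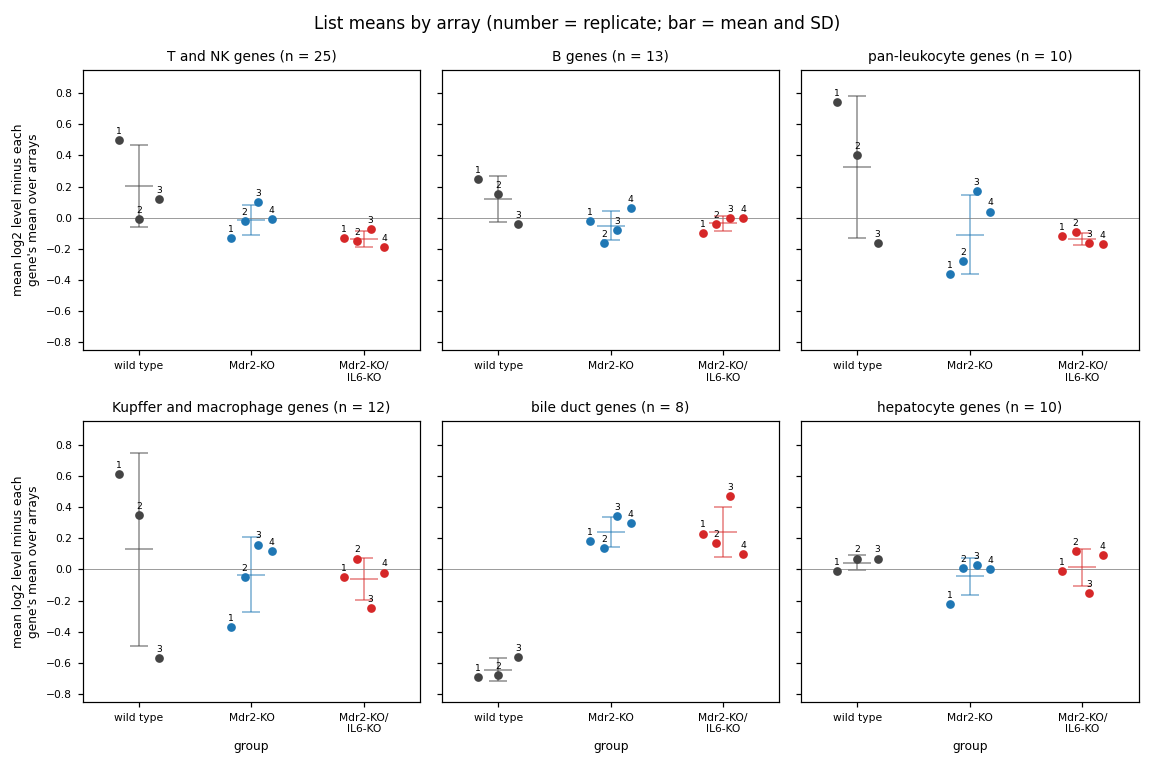
Each panel shows, for 1 gene list, the mean log2 level of the list on every array after subtraction of each gene's own mean over the 11 arrays (vertical axis, log2), by group, with the group mean and SD as bars and replicate numbers beside the points. Wild-type replicate 1 is highest for the T and NK genes at 0.50, wild-type replicate 3 is low for pan-leukocyte genes at -0.16 and for macrophage genes at -0.57, and the bile duct genes separate wild type from both knockouts.

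The calls among the 38 genes were all in the double knockout against wild type, and all were lower. In that comparison 4 of 25 T and NK genes fell and none rose (4.19% of all genes were called in either direction, 1.28% as lower and 2.91% as higher). They were Ccl5, a chemokine of activated T and NK cells, the granzyme genes Gzma and Gzmb, and Cd8a, a chain of the coreceptor of cytotoxic T cells. None of the 13 B genes was called there by limma. At an unadjusted p under 0.05 there were 13 T and NK genes, 11 lower and 2 higher, and 4 B genes, all lower (6.1% of all genes were lower and 9.4% higher at that level). The median change was -0.27 over the T and NK genes and -0.05 over the B genes, beside -0.00 over all genes tested. In this comparison 22 of 25 T and NK genes and 9 of 13 B genes were below 0, against 50.2% of all genes. Without wild-type replicate 1 none of the 25 was called, 10 had an unadjusted p under 0.05, 8 of them lower, the median was -0.16 and 20 of 25 were below 0. Calls over all genes also went down, from 836 to 464 without that array. They were 533 and 521 without wild-type replicate 2 or 3. Without wild-type replicate 2, Gzma was no longer called among the T and NK genes, and Gzmk and Nkg7 were called. Why calls were lost was not tested. Of the B genes, without wild-type replicate 1, none was called, 1 had an unadjusted p under 0.05, which was lower, and 7 of 13 were below 0. Their median was then -0.05.

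**Figure D2:**
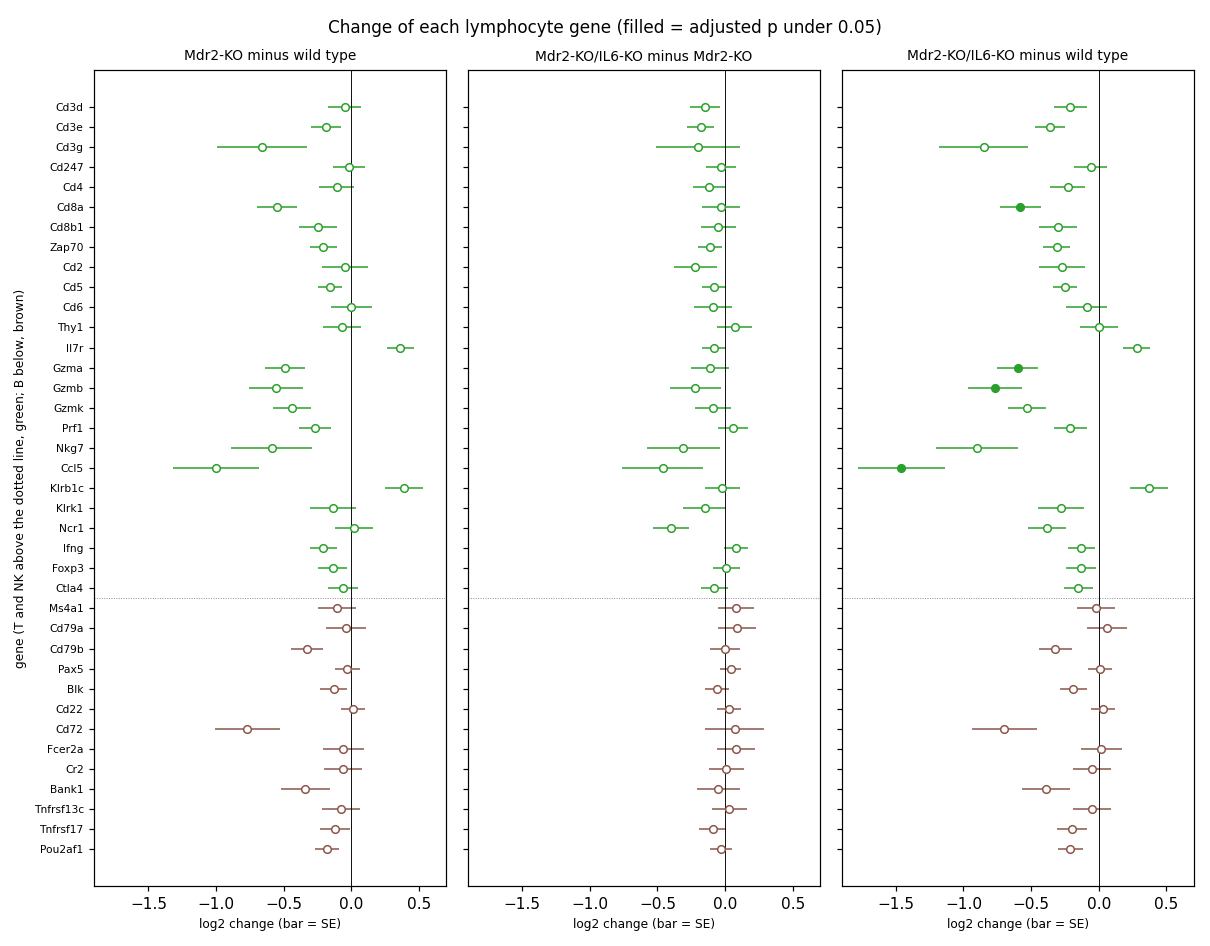
Log2 change of each of the 38 genes (horizontal axis; bar, SE) in the 3 comparisons, with T and NK genes in green above the dotted line and B genes in brown below it. Filled points mark an adjusted p under 0.05: Ccl5, Gzma, Gzmb and Cd8a in Mdr2-KO/IL6-KO minus wild type, and no gene in the other comparisons.

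Mdr2-KO liver was compared with wild type to ask whether lymphocyte transcripts change with loss of Mdr2 alone. No T and NK gene and no B gene was called (1.26% of all genes were, 0.316% as lower and 0.948% as higher). At an unadjusted p under 0.05, limma gave 9 T and NK genes, of which 7 were lower and 2 higher, and 2 B genes, both lower (9.79% of all genes, 4.09% lower and 5.69% higher). The median change was -0.16 over the T and NK genes and -0.11 over the B genes, beside -0.01 over all genes. Of the T and NK genes 22 of 25 were below 0, and of the B genes 12 of 13, against 51.7% of all genes. Without wild-type replicate 1 the medians were -0.08 and -0.05, and 16 of 25 and 10 of 13 were below 0. An unadjusted p under 0.05 was then left for 4 T and NK genes, 2 lower and 2 higher, and for 1 B gene, which was lower. Calls over all genes went from 252 to 149 without that array. The comparisons of the knockout groups with wild type share the wild-type arrays, so they are given side by side and are not separate evidence.

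The difference between the knockout groups was tested directly. No lymphocyte gene was called in Mdr2-KO/IL6-KO against Mdr2-KO (0.00502% of all genes, which is 1 gene, were). Limma gave 1 T and NK gene, Ncr1, and no B gene at an unadjusted p under 0.05 (4.82% of all genes, 2.04% lower and 2.78% higher). The median change was -0.09 over the T and NK genes and 0.03 over the B genes, beside 0.01 over all genes. That 4 genes passed the test against wild type in one knockout group and none in the other does not show a difference between those groups, since the direct test found none past the threshold. The 95% interval of this difference was -1.10 to 0.18 for Ccl5, so these arrays bound it only loosely.

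The genes of cytotoxic granules and secreted effectors held the widest differences. All 7 had lower means in both knockout groups than in wild type, with a median change of -0.49 for Mdr2-KO and -0.60 for the double knockout. Of all genes, 51.7% were below 0 in Mdr2-KO and 50.2% in the double knockout. With wild-type replicate 1 left out these medians were -0.24 and -0.40, and all 7 were still below 0. Of these 7, 3 fell in Mdr2-KO/IL6-KO (1.28% of all genes were called as lower) and none was called in Mdr2-KO (0.316%).

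Ccl5, which attracts T cells and NK cells, read 8.96, 7.59 and 8.18 on the wild-type arrays. It read 6.83, 7.04, 8.06 and 7.05 on the Mdr2-KO arrays and 7.04, 6.54, 7.14 and 6.42 on the double-knockout arrays. All 4 Mdr2-KO/IL6-KO arrays lay below every wild-type array, whereas Mdr2-KO replicate 3 lay within the wild-type range. Ccl5 fell by 1.46 ± 0.32 (SE) on the log2 scale, 2.75-fold, in Mdr2-KO/IL6-KO (adjusted p = 0.0207). In Mdr2-KO the change was -1.0 ± 0.32 (adjusted p = 0.220), which was -0.64 without wild-type replicate 1 (adjusted p = 0.666), and between the knockout groups it was -0.46 ± 0.30 (adjusted p = 0.9995).

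Gzma encodes granzyme A, a protease of the granules. It read 4.39, 3.84 and 3.74 on the wild-type arrays, 3.55, 3.58, 3.43 and 3.43 on the Mdr2-KO arrays and 3.15, 3.66, 3.45 and 3.28 on the double-knockout arrays. Every knockout array was below every wild-type array. Gzma fell by 0.60 ± 0.15, 1.52-fold, in Mdr2-KO/IL6-KO (adjusted p = 0.0412), and the change in Mdr2-KO was -0.49 ± 0.15 (adjusted p = 0.191). The Mdr2-KO change was -0.29 without wild-type replicate 1 (adjusted p = 0.604).

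Gzmb encodes granzyme B, the granule protease that starts apoptosis in the target cell. Its levels were 5.45, 4.52 and 4.51 on the wild-type arrays, 4.00, 4.37, 4.59 and 4.12 on the Mdr2-KO arrays and 4.19, 3.95, 4.01 and 4.07 on the double-knockout arrays. Wild-type replicate 1 was far above the other wild-type arrays, which were close to Mdr2-KO replicate 3 and above all Mdr2-KO/IL6-KO arrays. Gzmb fell by 0.77 ± 0.20, 1.71-fold, in Mdr2-KO/IL6-KO (adjusted p = 0.0495), with -0.56 ± 0.20 in Mdr2-KO (adjusted p = 0.318). That Mdr2-KO change was -0.24 without wild-type replicate 1 (adjusted p = 0.796).

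Gzmk, for granzyme K, missed the threshold narrowly in Mdr2-KO/IL6-KO. Its levels were 4.82, 4.26 and 4.38 on the wild-type arrays, 3.84, 3.93, 4.32 and 4.12 on the Mdr2-KO arrays and 4.07, 3.82, 4.01 and 3.92 on the double-knockout arrays. The double knockout arrays did not overlap wild type, and Mdr2-KO replicate 3 did. The change was -0.53 ± 0.14 in Mdr2-KO/IL6-KO (adjusted p = 0.0548) and -0.44 ± 0.14 in Mdr2-KO (adjusted p = 0.227), and without wild-type replicate 1 these were -0.36 (0.237) and -0.27 (0.680). Gzmk passed the threshold when wild-type replicate 2 was left out (-0.65, adjusted p = 0.0465) or Mdr2-KO replicate 3 was (-0.53, adjusted p = 0.0374).

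Nkg7, a granule membrane protein of NK and T cells, read 6.98, 5.39 and 5.97 on the wild-type arrays, 5.34, 5.18, 6.00 and 5.60 on the Mdr2-KO arrays and 4.93, 5.20, 5.55 and 5.20 on the double-knockout arrays. The groups overlapped. Its change in Mdr2-KO/IL6-KO was -0.90 ± 0.30 (adjusted p = 0.130), and it reached -1.26 with an adjusted p of 0.0301 when wild-type replicate 2 was left out and -0.46 (adjusted p = 0.461) without wild-type replicate 1. Prf1, for perforin, which forms pores in the target membrane, was 5.65 ± 0.219 for wild type, 5.39 ± 0.136 for Mdr2-KO and 5.45 ± 0.118 for the double knockout. Its change in Mdr2-KO was -0.27 ± 0.12 (adjusted p = 0.447), with no overlap between those groups, and -0.14 without wild-type replicate 1 (adjusted p = 0.901). Ifng, for interferon gamma, was 4.40 ± 0.108, 4.19 ± 0.113 and 4.27 ± 0.128 in the 3 groups, with -0.21 ± 0.10 in Mdr2-KO (adjusted p = 0.510).

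**Figure D3:**
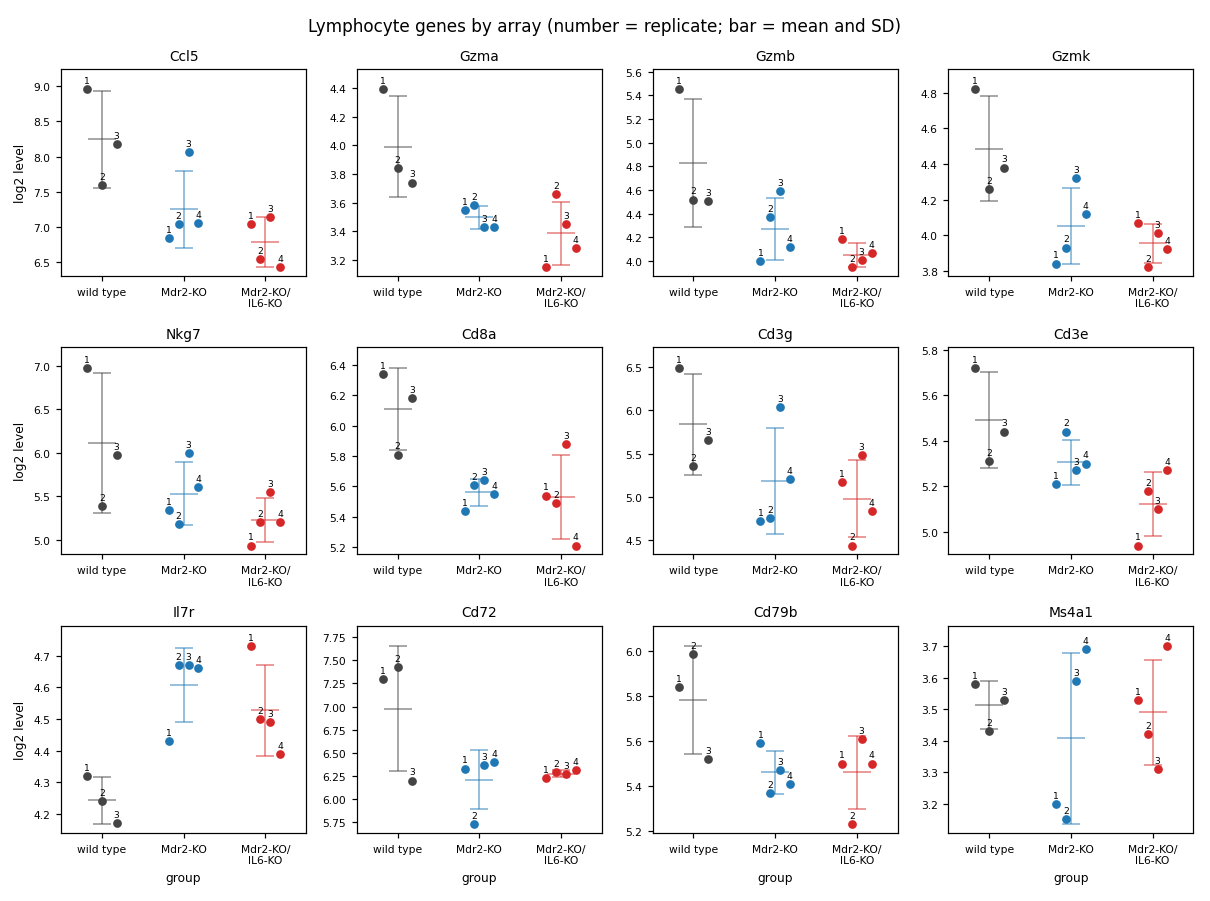
Log2 level (vertical axis, a scale of its own in each panel) on every array for 12 lymphocyte genes in the 3 groups, with the mean and SD as bars and replicate numbers beside the points. Wild-type replicate 1 is the highest point for Ccl5 at 8.96, Gzmb at 5.45 and Nkg7 at 6.98, Il7r is higher in both knockout groups than on any wild-type array, and Ms4a1 overlaps between all groups.

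Among the 8 genes of the T cell receptor complex and its coreceptors, 1 fell in Mdr2-KO/IL6-KO and none was called in Mdr2-KO. Of all genes, 1.28% and 0.316% were called as lower in these comparisons. All 8 had changes below 0 in both comparisons (50.2% and 51.7% of all genes did), with medians of -0.31 and -0.20. The medians without wild-type replicate 1 were -0.22 and -0.09, with 7 of 8 and 6 of 8 below 0: Cd247 was then above 0 in both, at 0.10 and 0.13, and Cd3d in Mdr2-KO, at 0.05. Cd8a, the alpha chain of the CD8 coreceptor, read 6.34, 5.81 and 6.18 on the wild-type arrays, 5.44, 5.61, 5.64 and 5.55 on the Mdr2-KO arrays and 5.54, 5.49, 5.88 and 5.21 on the double-knockout arrays. All Mdr2-KO arrays were below wild type, and Mdr2-KO/IL6-KO replicate 3 was above wild-type replicate 2. Cd8a fell by 0.58 ± 0.15, 1.5-fold, in Mdr2-KO/IL6-KO (adjusted p = 0.0464). The change of Cd8a in Mdr2-KO was -0.55 ± 0.15 (adjusted p = 0.115), or -0.44 without wild-type replicate 1 (adjusted p = 0.439). Cd8a was called there in 1 of 22 alternatives, at -0.60 with an adjusted p of 0.0418 when arrays were weighted by their quality. Its partner chain gene Cd8b1 was 5.40 ± 0.272, 5.14 ± 0.186 and 5.10 ± 0.176 for wild type, Mdr2-KO and the double knockout, and Cd4, the coreceptor of helper T cells, was 4.53 ± 0.0748, 4.42 ± 0.181 and 4.29 ± 0.230, neither with an unadjusted p under 0.05 in any comparison.

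The CD3 chains carry the receptor's signal into the cell. Cd3g read 6.49, 5.36 and 5.66 on the wild-type arrays, 4.72, 4.76, 6.04 and 5.21 on the Mdr2-KO arrays and 5.17, 4.44, 5.48 and 4.84 on the double-knockout arrays. Its spread was wide in every group and the groups overlapped, and the change in Mdr2-KO/IL6-KO was -0.85 ± 0.33 (adjusted p = 0.215), or -0.53 without wild-type replicate 1 (adjusted p = 0.630). Cd3e read 5.72, 5.31 and 5.44 in wild type and 4.94, 5.18, 5.10 and 5.27 in Mdr2-KO/IL6-KO, which did not overlap, and 5.21, 5.44, 5.27 and 5.30 in Mdr2-KO. Its change in Mdr2-KO/IL6-KO was -0.36 ± 0.11 (adjusted p = 0.0971), and between the knockout groups -0.18 ± 0.10 (adjusted p = 0.9995). Cd3d had means of 4.29, 4.23 and 4.08 for wild type, Mdr2-KO and the double knockout, and Cd247, the zeta chain, 4.55, 4.53 and 4.49. Zap70, the kinase that binds the activated CD3 and zeta chains, was 5.79 ± 0.0671 for wild type, 5.58 ± 0.124 for Mdr2-KO and 5.47 ± 0.147 for the double knockout. Neither knockout group overlapped wild type for Zap70, and its change in Mdr2-KO/IL6-KO was -0.31 ± 0.10 (adjusted p = 0.119).

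Of 5 other T cell surface receptors none was called in any comparison. Cd5, which dampens receptor signalling, was lower on every knockout array than on every wild-type array, and its change in Mdr2-KO/IL6-KO was -0.25 ± 0.09 (adjusted p = 0.211). Il7r, the receptor chain for the survival cytokine interleukin 7, stood in the other direction. It read 4.32, 4.24 and 4.17 on the wild-type arrays, 4.43, 4.67, 4.67 and 4.66 on the Mdr2-KO arrays and 4.73, 4.50, 4.49 and 4.39 on the double-knockout arrays. Every knockout array was above every wild-type array, with changes of 0.36 ± 0.10 in Mdr2-KO (adjusted p = 0.124) and 0.28 ± 0.10 in the double knockout (adjusted p = 0.165). Without wild-type replicate 1 these were 0.40 and 0.32 (adjusted p = 0.215 and 0.225). The adhesion receptors Cd2 and Cd6 and the surface glycoprotein Thy1 overlapped between all groups, with changes between -0.27 and 0.07 over the 3 comparisons.

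The 3 NK receptor genes did not share a direction against wild type, and between the knockout groups all 3 changes were below 0, from -0.40 to -0.02, with none called. In Mdr2-KO all 3 were above 0 without wild-type replicate 1, with a median of 0.14, and 2 of 3 were below 0 in the double knockout, with a median of -0.01. Klrb1c, which encodes the NK1.1 antigen of C57BL/6 mice, read 2.63, 2.18 and 2.48 on the wild-type arrays, 2.65, 2.82, 2.76 and 3.05 on the Mdr2-KO arrays and 3.09, 2.65, 2.64 and 2.82 on the double-knockout arrays. All knockout arrays were above all wild-type arrays, at the dim end of the scale, with changes of 0.39 ± 0.14 (adjusted p = 0.303) and 0.37 ± 0.14 (adjusted p = 0.196). This gene belongs to a family of similar lectin-like receptors, and hybridisation of its relatives to the probe set was not tested. Ncr1, the NK receptor NKp46, read 3.67, 3.82 and 3.52 on the wild-type arrays, 3.63, 3.80, 3.52 and 3.79 on the Mdr2-KO arrays and 3.04, 3.07, 3.50 and 3.52 on the double-knockout arrays. Replicates 1 and 2 of the double knockout were low, replicate 3 was just under the other groups and replicate 4 reached their lowest arrays. Its change was -0.40 ± 0.13 against Mdr2-KO (adjusted p = 0.911) and -0.38 ± 0.14 against wild type (adjusted p = 0.163). Klrk1, the activating receptor NKG2D, was 3.86 ± 0.484, 3.72 ± 0.124 and 3.57 ± 0.0911 for wild type, Mdr2-KO and the double knockout. The regulatory T cell genes Foxp3, the lineage's transcription factor, and Ctla4, an inhibitory receptor, changed by -0.15 to 0.01 over the 3 comparisons, with no unadjusted p under 0.05.

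Counted by overlap of arrays, 7 T and NK genes lay wholly below wild type in Mdr2-KO/IL6-KO (6.44% of all genes did) and 2 wholly above (9.85%). In Mdr2-KO 5 lay wholly below (3.64%) and 2 wholly above (5.49%). Between the knockout groups no lymphocyte gene separated (0.908% of all genes lay below and 1.6% above). Among the B genes only Pou2af1 in Mdr2-KO lay wholly below wild type.

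Each of the 4 calls was lost when certain single arrays were left out. Without wild-type replicate 1 the changes in Mdr2-KO/IL6-KO were -1.10 for Ccl5 (adjusted p = 0.101), -0.46 for Gzmb (0.154), -0.40 for Gzma (0.165) and -0.46 for Cd8a (0.204), and no call was left. Without Mdr2-KO/IL6-KO replicate 4 none was left either, with changes of -1.34 for Ccl5 (adjusted p = 0.0556), -0.78 for Gzmb (0.0923), -0.57 for Gzma (0.0949) and -0.47 for Cd8a (0.105). One call was left without Mdr2-KO replicate 1 or 4 or Mdr2-KO/IL6-KO replicate 1, which was Ccl5, and 1 without Mdr2-KO/IL6-KO replicate 2, which was Gzma. The calls left were Gzma and Gzmb without wild-type replicate 3, and Ccl5 and Cd8a without Mdr2-KO/IL6-KO replicate 3. Gzma alone was lost without wild-type replicate 2 (adjusted p = 0.0649), Gzmb alone without Mdr2-KO replicate 2 (0.0534) and Cd8a alone without Mdr2-KO replicate 3 (0.0524). Over the 11 omissions the adjusted p of a lost call lay between 0.0516 and 0.204, and the direction of all 4 genes was the same in each. An Mdr2-KO array is in neither group compared and enters only through the shared spread and the adjustment over all genes. Leaving 1 out left the changes at -0.58, -0.60 and -0.77 for Cd8a, Gzma and Gzmb, with lost calls at adjusted p of 0.0516 to 0.0658.

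**Figure D4:**
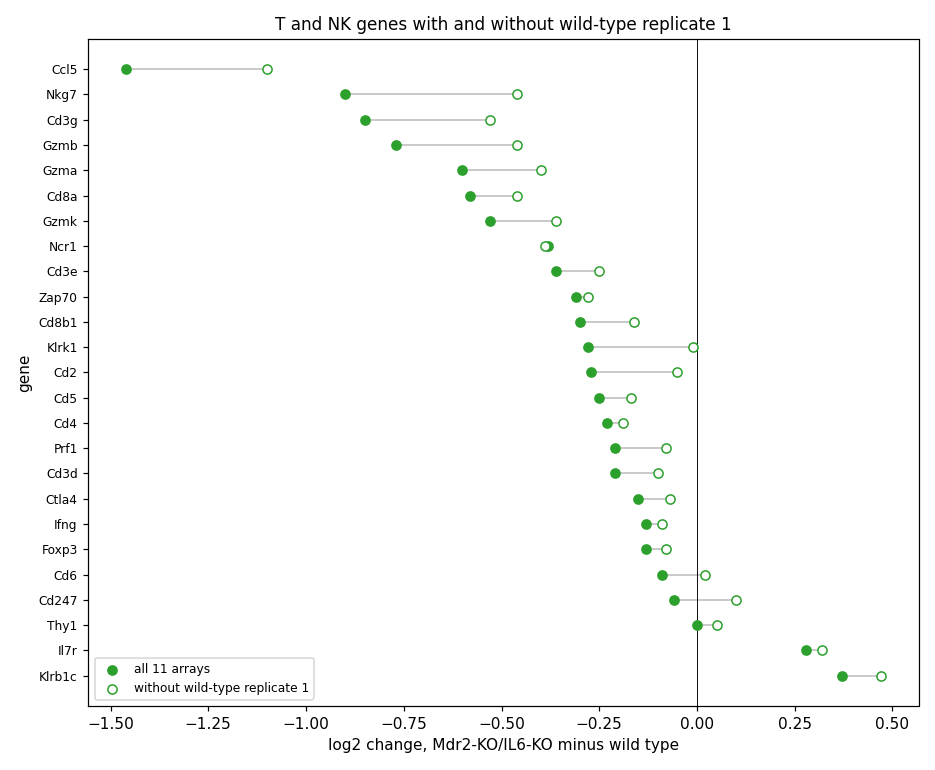
Log2 change of the 25 T and NK genes in Mdr2-KO/IL6-KO minus wild type (horizontal axis), with all 11 arrays as filled points and without wild-type replicate 1 as open points. The change of Ccl5 moves from -1.46 to -1.10 and that of Nkg7 from -0.90 to -0.46, and 20 of 25 genes stay below 0.

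The stretches upstream of 3 of the called genes are shown because these genes fell together in Mdr2-KO/IL6-KO. They are the 250 bases before the transcription start from RefSeq, build GRCm38.p6, printed along the gene's own strand from 5′ to 3′. Capitals mark matches to a RUNX-type motif, TGTGGT or ACCACA on the other strand, since RUNX factors are known regulators of cytotoxic T cell genes. Cd8a lies on the plus strand (chr6:71373177-71373426), Gzma on the minus strand (chr13:113100982-113101231) and Gzmb on the minus strand (chr14:56262335-56262584).
Cd8a: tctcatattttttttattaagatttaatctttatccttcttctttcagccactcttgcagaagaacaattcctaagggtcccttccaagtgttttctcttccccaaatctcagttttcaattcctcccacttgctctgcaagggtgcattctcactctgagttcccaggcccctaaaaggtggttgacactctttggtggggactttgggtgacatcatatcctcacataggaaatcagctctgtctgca
Gzma: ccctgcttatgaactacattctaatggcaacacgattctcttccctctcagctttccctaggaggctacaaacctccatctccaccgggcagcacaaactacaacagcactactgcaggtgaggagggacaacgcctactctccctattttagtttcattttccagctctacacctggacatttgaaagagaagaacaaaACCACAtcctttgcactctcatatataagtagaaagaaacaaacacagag
Gzmb: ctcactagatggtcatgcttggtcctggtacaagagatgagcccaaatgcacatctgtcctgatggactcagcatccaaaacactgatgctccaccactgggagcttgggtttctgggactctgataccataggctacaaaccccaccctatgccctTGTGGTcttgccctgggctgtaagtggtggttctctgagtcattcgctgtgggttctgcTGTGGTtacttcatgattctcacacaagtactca
Gzma had 1 match, starting 50 bases before the transcription start, Gzmb had 2, at 93 and 34 bases, and Cd8a had none. Of all 32851 upstream windows of this length in the table, 14% held the RUNX-type letters. Of the lymphocyte genes, 29 had a window, and these letters were in 8 of 19 T and NK genes and 2 of 10 B genes. A gene with several windows counted if any of them matched, so these counts are not on the scale of the share of windows. By window, the letters were in 11 of 35 windows of lymphocyte genes. An ETS-type motif, AGGAAG or CTTCCT, was in 11 of 19 and 4 of 10 genes, and in 17 of 35 windows (29.5% of all windows). A T-box-type motif, AGGTGTGA or TCACACCT, was in 1 of 19 genes, Nkg7, and 0 of 10, and in 1 of 35 windows (1.12% of all windows). Matches of different motifs may overlap, and the motifs were chosen after the expression values were known. A match describes letters and not binding, and an absent match says nothing about a factor. The set of windows used here held none under the symbols Ccl5, Cd4, Cd8b1, Cd2, Cd6, Thy1, Ms4a1, Cd79b and Blk.

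B cell genes showed smaller differences. In no comparison was any of the 13 called. Over the 6 genes of the B cell receptor complex and its regulators the median change was -0.23 for Mdr2-KO and -0.26 for the double knockout, and without wild-type replicate 1 it was -0.13 and -0.19. Cd72, an inhibitory coreceptor of B cells, had the largest change of the class, and it read 7.30, 7.43 and 6.20 on the wild-type arrays, 6.33, 5.73, 6.37 and 6.4 on the Mdr2-KO arrays and 6.23, 6.29, 6.27 and 6.31 on the double-knockout arrays. Wild-type replicates 1 and 2 were high and wild-type replicate 3 was level with the knockouts. Its change was -0.77 ± 0.24 in Mdr2-KO (adjusted p = 0.207) and -0.70 ± 0.24 in the double knockout (adjusted p = 0.155). Without wild-type replicate 3 it was called in both, at -1.16 (adjusted p = 0.00632) and -1.09 (adjusted p = 0.00454), and without wild-type replicate 1 it was -0.60 and -0.54 (adjusted p = 0.587 and 0.470).

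The same order of wild-type arrays, 1 and 2 high and 3 low, was seen in the macrophage list given below. Whether it bears on Cd72 was not tested. Cd79b, a signalling chain of the B cell receptor, read 5.84, 5.99 and 5.52 on the wild-type arrays, 5.59, 5.37, 5.47 and 5.41 on the Mdr2-KO arrays and 5.50, 5.23, 5.61 and 5.50 on the double-knockout arrays. Wild-type replicate 3 lay within both knockout ranges, and the changes were -0.33 ± 0.12 (adjusted p = 0.328) and -0.32 ± 0.12 (adjusted p = 0.192). Bank1, an adaptor of receptor signalling, was 5.35 ± 0.495 in wild type, with 5.90 on replicate 1 alone, and 5.0 ± 0.154 and 4.95 ± 0.129 in the knockout groups. Its change in Mdr2-KO/IL6-KO was -0.39 ± 0.18 (adjusted p = 0.310), and -0.12 without wild-type replicate 1 (adjusted p = 0.841).

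Cd79a, the other signalling chain, was 3.57 ± 0.234, 3.53 ± 0.225 and 3.62 ± 0.198 for wild type, Mdr2-KO and the double knockout. Blk, a kinase downstream of the receptor, had means of 4.82, 4.69 and 4.63, and Cd22, a sialic acid-binding inhibitory receptor, 4.85, 4.86 and 4.89. These 3 genes overlapped between all groups.

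Pou2af1, a transcriptional coactivator needed for germinal centres, read 5.37, 5.47 and 5.22 on the wild-type arrays, 5.18, 5.12, 5.19 and 5.20 on the Mdr2-KO arrays and 5.24, 5.15, 5.02 and 5.17 on the double-knockout arrays. Its changes were -0.18 ± 0.09 (adjusted p = 0.536) and -0.21 ± 0.09 (adjusted p = 0.256). Pax5, which fixes B cell identity, was 4.99 ± 0.0803, 4.96 ± 0.0675 and 5.0 ± 0.105 in the 3 groups.

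Ms4a1, which encodes CD20, read 3.58, 3.43 and 3.53 on the wild-type arrays, 3.20, 3.15, 3.59 and 3.69 on the Mdr2-KO arrays and 3.53, 3.42, 3.31 and 3.70 on the double-knockout arrays, with full overlap. Its intervals for the change from wild type ran from -0.40 to 0.19 for Mdr2-KO and from -0.32 to 0.27 for the double knockout. Fcer2a, a low-affinity IgE receptor, and Cr2, a complement receptor, changed by -0.06 to 0.08 over the 3 comparisons. The receptors for the survival factors BAFF and APRIL were Tnfrsf13c, with means of 6.15, 6.08 and 6.11, and Tnfrsf17, found on plasma cells, with 4.39, 4.28 and 4.19. Against Mdr2-KO, the lowest p of the class in the double knockout was that of Tnfrsf17, at -0.09 ± 0.10 (adjusted p = 0.9995), followed by Cd79a at 0.09 ± 0.14 and Ms4a1 at 0.08 ± 0.13 with the same adjusted p.

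Other lymphocyte genes were read from 9 lists by function, with 104 of 122 listed genes measured. None was called in Mdr2-KO against wild type (1.26% of all genes were) or between the knockout groups (0.00502%). In Mdr2-KO/IL6-KO against wild type 6 fell and 1 rose, beside 1.28% of all genes called as lower and 2.91% as higher. The median change over the 104 was -0.07, -0.04 and -0.12 in Mdr2-KO against wild type, Mdr2-KO/IL6-KO against Mdr2-KO, and Mdr2-KO/IL6-KO against wild type. These medians against wild type without wild-type replicate 1 were -0.04 and -0.07, with 1 gene lower in the double knockout, Xbp1, and 1 higher, the chemokine gene Cxcl16 at 0.76 (adjusted p = 0.0250), which is named after its values were seen. The T cell receptor signalling partners held 4 of the 6, out of 15 measured, with a median of -0.18, or -0.12 without wild-type replicate 1. These included Sh2d1a, the adaptor SAP, at -0.40 ± 0.08 (adjusted p = 0.0168), Lcp2, the adaptor SLP-76, at -0.89 ± 0.19 (adjusted p = 0.0169), and Lat, the scaffold phosphorylated by ZAP-70, at -0.51 ± 0.12 (adjusted p = 0.0335). On the wild-type arrays Lcp2 read 7.64, 7.34 and 6.61, high on replicates 1 and 2 and low on 3, as in the macrophage list given below. Lat (5.73, 5.22 and 5.55) and Sh2d1a (3.99, 3.85 and 4.1) did not have that order. Whether it bears on Lcp2 was not tested.

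Of 15 cytotoxic effectors and NK receptors, Cd226, an activating adhesion receptor, fell by 0.42 ± 0.10 (adjusted p = 0.0256). The changes of these 15 genes ran from -0.55 to 0.17, with 13 of 15 below 0 (50.2% of all genes were). Their median was -0.13, or -0.11 without wild-type replicate 1, and -0.07 in Mdr2-KO. Of 11 plasma cell and immunoglobulin genes, Xbp1, a factor for secretory cells that hepatocytes also express, fell by 0.79 ± 0.15 (adjusted p = 0.00922). The changes of that list ran from -1.01 to 0.21, with a median of -0.11, or -0.07 without wild-type replicate 1. The change of -1.01 was not called. The part of hepatocytes in the Xbp1 value was not tested. Of 14 homing genes, Cxcr4, the receptor for the chemokine CXCL12, rose by 0.72 ± 0.16 (adjusted p = 0.0241). The changes of that list ran from -1.42 to 0.72, with 9 of 14 below 0 (50.2% of all genes were). Its median was -0.12, or -0.08 without wild-type replicate 1. Without wild-type replicate 1 only Xbp1 of these named genes was still called, at -0.75 (adjusted p = 0.0491), with Lcp2 at -0.66 (0.0772), Lat at -0.39 (0.162), Sh2d1a at -0.39 (0.0651), Cd226 at -0.46 (0.0519) and Cxcr4 at 0.76 (0.0645). Without wild-type replicate 2 or 3 Cxcr4 and Cd226 were not called either, with adjusted p between 0.0531 and 0.134 and changes of 0.70 and 0.71 for Cxcr4 and -0.45 and -0.34 for Cd226. Lcp2 was also lost without wild-type replicate 2 (-0.82, adjusted p = 0.0770), and Sh2d1a and Lat without wild-type replicate 3 (-0.34 and -0.48, adjusted p = 0.0922 and 0.123). Of the double-knockout arrays, leaving out replicate 1 ended the calls of Lat, Cd226 and Cxcr4, replicate 2 those of Lcp2, Lat and Cxcr4, replicate 3 that of Cd226 and replicate 4 that of Lat, with adjusted p between 0.0514 and 0.0877. The changes then were -0.84 for Lcp2, -0.52 to -0.48 for Lat, -0.40 and -0.39 for Cd226, and 0.61 and 0.62 for Cxcr4.

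None of the genes was called in the lists of T and NK transcription factors (median -0.11 in Mdr2-KO/IL6-KO against wild type), activation and checkpoint receptors (-0.13), B cell receptor signalling partners (-0.09), B cell transcription factors and surface receptors (-0.06) and lymphocyte survival cytokines (-0.19). Their medians without wild-type replicate 1 were -0.06, -0.06, 0.00, -0.03 and -0.21, and none was called. The lowest p in these lists belonged to Gata3, the factor of helper T cells, at -0.14 ± 0.10 (adjusted p = 0.595), Tnfrsf18, a costimulatory receptor, at -0.22 ± 0.08 (0.203), Blnk, an adaptor of the B cell receptor, at 0.71 ± 0.22 (0.106), Pou2f2 at -0.31 ± 0.12 (0.232) and Flt3l, a growth factor, at 0.29 ± 0.10 (0.142).

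Markers of other leukocytes varied among the wild-type arrays. The 10 pan-leukocyte genes, headed by Ptprc, which encodes CD45, had medians against wild type of -0.45 for Mdr2-KO and -0.49 for the double knockout, with 10 of 10 below 0 in each and none called. These medians were -0.21 and -0.25 without wild-type replicate 1. Their list mean was 0.74, 0.40 and -0.16 on the wild-type arrays, -0.36 to 0.17 over the Mdr2-KO arrays and -0.17 to -0.09 over the double-knockout arrays. Ptprc itself read 8.11, 7.93 and 7.11 in wild type and 6.72 to 7.29 over the knockout arrays. The 12 Kupffer cell and macrophage genes gave 0.61, 0.35 and -0.57 on the wild-type arrays, -0.37 to 0.16 over the Mdr2-KO arrays and -0.25 to 0.07 over the double-knockout arrays, with none called, so wild type spanned every knockout array. Their medians against wild type were -0.25 and -0.19, and 0.02 and 0.12 without wild-type replicate 1. Wild-type replicate 1 was thus the highest array for both lists as it was for the T and NK genes, and wild-type replicate 3 was low for both lists but not for the T and NK genes. The part of these cells in the lymphocyte values was not tested.

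In the same livers 5 of 8 bile duct genes rose in each knockout group against wild type. Of the fibroblast and stellate cell genes 6 of 12 rose in each. With all 11 arrays, 0.948% of all genes were called as higher in Mdr2-KO and 2.91% in the double knockout. Without wild-type replicate 1, 5 of 8 bile duct genes rose in each. For the fibroblast and stellate cell genes it was then 5 of 12 in Mdr2-KO and 6 of 12 in the double knockout. The bile duct list mean was -0.69 to -0.56 for wild type, 0.14 to 0.34 for Mdr2-KO and 0.10 to 0.47 for the double knockout, and the fibroblast list mean was -0.53 to -0.35, -0.01 to 0.20 and 0.12 to 0.30. Endothelial genes rose in 1 of 10 and 2 of 10 (1 of 10 in each without wild-type replicate 1), and in the dendritic cell list Ly6d alone rose, in Mdr2-KO/IL6-KO. None of 10 neutrophil and none of 10 hepatocyte genes was called, and the hepatocyte list mean lay between -0.22 and 0.12 on all arrays. The part of duct and stromal RNA in the lymphocyte values was not tested.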

How the data were processed

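RNA of liver homogenate was hybridised to Affymetrix arrays, and the authors deposited 1 table of log2 values for 35557 probe sets on 11 arrays. Per the submitters' processing notes, Partek and RMA produced it. Their versions are not given in the sources used here. Array medians lay between 5.09 and 5.23, and the values were used without further normalization. Probe sets were named through GEO's platform annotation, with symbols updated by Entrez ID to a RefSeq table of GRCm38.p6. Of the probe sets, 21789 had 1 symbol, 1621 several and 12147 none, which left 19938 genes, 19856 of them matched to RefSeq.

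Limma 3.58.1 in R 4.3.3 fitted 1 mean per group to all 11 arrays, with 3 two-sided contrasts moderated by eBayes and Benjamini-Hochberg adjustment over all genes. The script was tested on simulated data. The labels give no batch or pairing, and replicates are numbered in sample order. A fold change is printed for a lymphocyte gene that was called, had an unadjusted p under 0.05 or was among the 3 lowest p of its class in a comparison. For other lists the lowest p, or up to 3 called genes, is printed, and the genes of lists of other cells are given by counts and ranges except where named. The genes, lists and motifs were chosen with earlier results of these data known. Alternatives were a filter on dim genes, 3 normalizations, other variance models, only 2 groups, a stricter threshold and leaving out each array. The number of arrays limits the precision.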

Additional observations from a re-analysis of the deposited data

Results flagged for a closer look

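Within the groups of 4 arrays, 11 of 80 sets of levels had an array set apart from the other 3 by a gap that Dixon's test places beyond its 95% limit. Chance alone sets apart about 1 group in 20, and no gene among the 4 called ones was concerned. Among T cell genes, Cd3d was 4.43 on Mdr2-KO replicate 2 beside 4.16 to 4.17 on the others, and 3.87 on Mdr2-KO/IL6-KO replicate 4 beside 4.13 to 4.17. Zap70 was 5.39 on Mdr2-KO replicate 3 beside 5.63 to 5.66. Il7r was 4.43 on Mdr2-KO replicate 1 beside 4.66 to 4.67, still above every wild-type array. Foxp3 was 5.15 on Mdr2-KO replicate 2 beside 4.94 to 4.96. Thy1 was 6.10 on Mdr2-KO/IL6-KO replicate 2 beside 5.62 to 5.69, and Prf1 was 5.27 on Mdr2-KO/IL6-KO replicate 3 beside 5.49 to 5.52.

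Among B cell genes, Cd72 was 5.73 on Mdr2-KO replicate 2 beside 6.33 to 6.4. Pax5 was 4.86 on Mdr2-KO replicate 4 beside 4.99 to 5.0, and 5.16 on Mdr2-KO/IL6-KO replicate 3 beside 4.93 to 4.97. Cr2 was 3.40 on Mdr2-KO/IL6-KO replicate 4 beside 3.75 to 3.79.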

How the results depend on the processing

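Changes of the 4 called genes kept their sign under every alternative that tested them. The 4 T and NK calls in Mdr2-KO/IL6-KO against wild type became 2 with only genes above the median gene, 2 with only the 2 groups compared, 0 with an unmoderated linear model and 0 at an adjusted p under 0.01, 3 with quantile normalization, cyclic loess or trend and robust eBayes, 5 with median centring and 6 with array weights, and ranged from 0 to 5 with single arrays left out. In Mdr2-KO the count of 0 became 1 with array weights. The B count ranged from 0 to 1 in both comparisons with wild type with single arrays left out. The filter on dim genes left 5 T and NK and 2 B genes, with medians of -0.55 and -0.42 for Mdr2-KO and -0.58 and -0.37 for the double knockout against wild type.

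The count of all genes called in Mdr2-KO against wild type, 252, was 43 unmoderated, 410 with array weights, 138 with only the 2 groups and 94 at 0.01, and 148 to 323 with single arrays left out. For Mdr2-KO/IL6-KO against wild type, 836 became 496, 1341 and 342 (unmoderated, weights, 0.01), and 464 to 989. Between the knockout groups, 1 became 4 with the dim filter, 2 with median centring, 4 with cyclic loess, 2 with trend and robust eBayes, 0 unmoderated and 6 with weights, 1 to 5 with single arrays left out, and 2 without Mdr2-KO replicates 2 and 3 together, an alternative chosen after seeing the data. Between the knockout groups Ms4a1 turned to -0.002 without Mdr2-KO replicate 2 (up to 0.18 with other single arrays left out), and Cd79a to -0.02 with array weights and -0.06 without Mdr2-KO replicates 2 and 3. The cause of these shifts was not tested, other than the stricter threshold and smaller sets by construction. No setting moved the median of all genes beyond -0.021 to 0.023. No paired analysis was possible because the labels give no replicate numbers shared between groups. With 3 wild-type arrays, 1 of which stood apart, small differences in dim genes could not be resolved.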
